A study of Prunus sibirica with 6 samples.

Results

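The genes described here code for the proteins of the cytosolic ribosome of Prunus sibirica, the Siberian apricot. They were taken from the deposited gene table as the rows whose description names a 40S or a 60S ribosomal protein, with 5 rows for mitochondrial proteins dropped, and there were 163 of 31889 genes. Of these, 66 were described as proteins of the small (40S) subunit, 94 as proteins of the large (60S) subunit and 3 as fusions of ubiquitin to a ribosomal protein. They fell into 71 protein families, 29 of the small subunit and 42 of the large one, each fusion being counted with the subunit of its ribosomal protein. On the map, 160 lay on the 8 linkage groups and 3 on unplaced contigs, with 31 on linkage group 2 and 10 on linkage group 7. The names are similarities to proteins of other species, and 20 of the gene models also carried a domain that is not ribosomal.

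RNA was sequenced from whole flower organs in bloom that had been under natural frost at -4 °C. Clone No. 338, of strong frost resistance, gave 3 libraries, and clone No. 28, of weak frost resistance, gave 3. All flowers were frosted, so each comparison is between clones under frost, and since a single clone stands for each kind of resistance, resistance cannot be told apart from any other difference between these clones. Whether the replicates were separate trees is not stated in the labels, and p-values here reflect only how far these libraries spread, possibly for technical reasons.

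Depth was even, at 16367632 to 18866306 gene-assigned reads per library. Weak library 3 stood apart from weak libraries 1 and 2. Over the 16462 genes tested, its log2 levels had Pearson correlations of 0.89 to 0.93 with the strong libraries, against 0.85 and 0.86 with weak libraries 1 and 2, which correlated with each other at 0.99; these are correlations across genes, which are not independent replicates. Of 36 genes at 5 FPKM or more in weak libraries 1 and 2 and under 0.1 in every strong library, all 36 were at 1 FPKM or more in weak library 3. Of 41 genes with the opposite pattern, 19 were under 1 FPKM in weak library 3. Results are therefore given with and without this library. All levels below are in FPKM, fragments per kilobase of gene with a library size taken into account, which makes genes of different length comparable. The library size behind the deposited values did not follow depth. It was 1.35, 1.18 and 1.42 times the gene-assigned reads in the strong libraries, against 0.618, 0.663 and 1.21 times in the weak libraries. An equal share of reads therefore gives a higher FPKM in weak libraries 1 and 2. Summed FPKM was 464129 to 591204 in the strong libraries, against 1.22e+06, 1.11e+06 and 580337 in the weak libraries.

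A ribosome is built from ribosomal RNA and one copy of nearly every ribosomal protein, and the small subunit decodes the messenger RNA while the large one joins the amino acids. Plant genomes keep several genes for most of these proteins, and the copies are known to be used to different extents in different organs. In plants, transcription of these genes is tied to growth, among others through the TOR kinase, and pollen enters bloom with stored messenger RNA and ribosomes.

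Of the 163 ribosomal protein genes, 143 reached 1 FPKM in at least 3 of the 6 libraries and were tested, among them 53 of the small subunit, 87 of the large subunit and all 3 fusions. Of the tested genes, 81 had a mean over the 6 libraries of at least 100 FPKM and 5 had a mean under 10 FPKM. The median level of the tested genes was 153, 138 and 156 FPKM in strong libraries 1, 2 and 3, against 58.5, 56.9 and 163 FPKM in weak libraries 1, 2 and 3. The 3 strong libraries and weak library 3 were thus close together, and weak libraries 1 and 2 lay apart below them. In whole flowers, fewer cells of a type and less RNA per cell cannot be told apart in such levels. The median gene had 1498 reads in a library, and the lowest count of a tested gene was 7 reads.

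**Figure D1:**
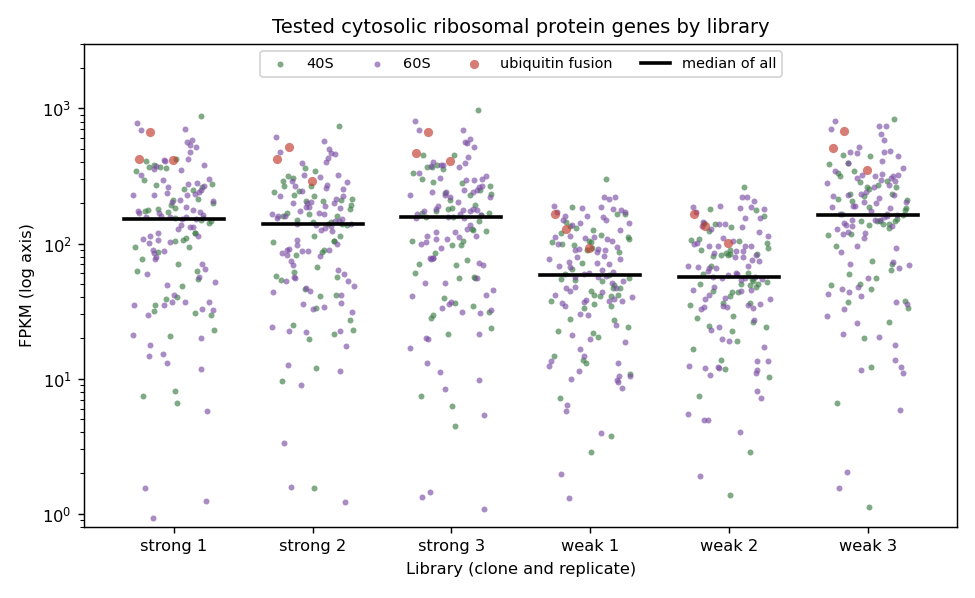
FPKM (log axis) of the 143 tested ribosomal protein genes in each library, with each point a gene, coloured by subunit, and a black bar at the median. The medians were 153, 138 and 156 FPKM in the strong libraries and 58.5, 56.9 and 163 FPKM in the weak libraries.

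The 20 genes that were not tested included all 12 described as S20, of which 7 carried DUF1985 or Ulp1 protease domains, and 5 of the 10 described as L18a. None of the 20 exceeded 2.97 FPKM in any library, and 5 of the 163 genes were listed at 0 in all libraries. At least 1 tested gene was present for 70 of the 71 families, S20 being the exception.

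The question of the design was how frosted flowers of the strong clone differ from those of the weak clone. In the test across all genes (limma, Benjamini-Hochberg adjusted p under 0.05), 1 ribosomal protein gene was higher and 2 were lower in the strong clone, which is 2.10% of the 143 tested, where 15.3% of all genes tested passed, 1239 higher (7.53%) and 1281 lower (7.78%). With each library rescaled to the same summed FPKM, the calls over all genes were 1568 higher and 747 lower, and those among ribosomal protein genes were 1 higher and 1 lower. The share called was below the background, yet the differences were lopsided, with 126 positive and 17 negative. Their median was 0.76 on the log2(FPKM + 1) scale, with the middle 50% of genes between 0.46 and 1.06, against a median of 0.05 over all genes tested. The standard error of the difference had a median of 0.47 for ribosomal protein genes and 0.30 over all genes. The groups did not overlap in 14 genes, 9 higher and 5 lower in the strong clone (9.79%), where 45.4% of all genes did not overlap, 23.3% higher and 22.1% lower.

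The wide errors lay in the weak clone. Within the strong clone the standard deviation of log2 levels had a median of 0.16 over ribosomal protein genes, and within the weak clone it had a median of 0.94. Over all genes these medians were 0.19 (strong) and 0.49 (weak). Weak libraries 1 and 2 alone differed by a median of 0.10 in ribosomal protein genes. Weak libraries 1 and 2 were both the lowest of the 6 libraries in 122 genes (85.3%), where 38.4% of all genes had this order, and both the highest in 8 genes (5.59%), where 37.7% did. In 13 genes neither held. Weak library 1 lay below the range of the strong libraries in 125 genes and above it in 10, where 47.0% and 44.4% of all genes did. Weak library 2 lay below that range in 128 genes and above it in 10, where 46.8% and 43.9% did. Weak library 3 lay below it in 11 genes and above it in 94, where 32.8% and 34.1% did.

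Without weak library 3, the same fit called 117 ribosomal protein genes higher and 8 lower in the strong clone (87.4%), where 73.4% of all genes passed, 38.0% higher and 35.4% lower. The median difference was then 1.29, with a median standard error of 0.18, against a median of 0.05 over all genes. Taken one by one, the median of the strong mean minus the weak library was 1.27 for weak library 1, 1.30 for weak library 2 and -0.24 for weak library 3. Over all genes these medians were 0.05, 0.05 and -0.03. The direction of the ribosomal protein genes thus depended on which weak library was set against the strong clone, and the labels give nothing that sets weak library 3 apart.

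**Figure D2:**
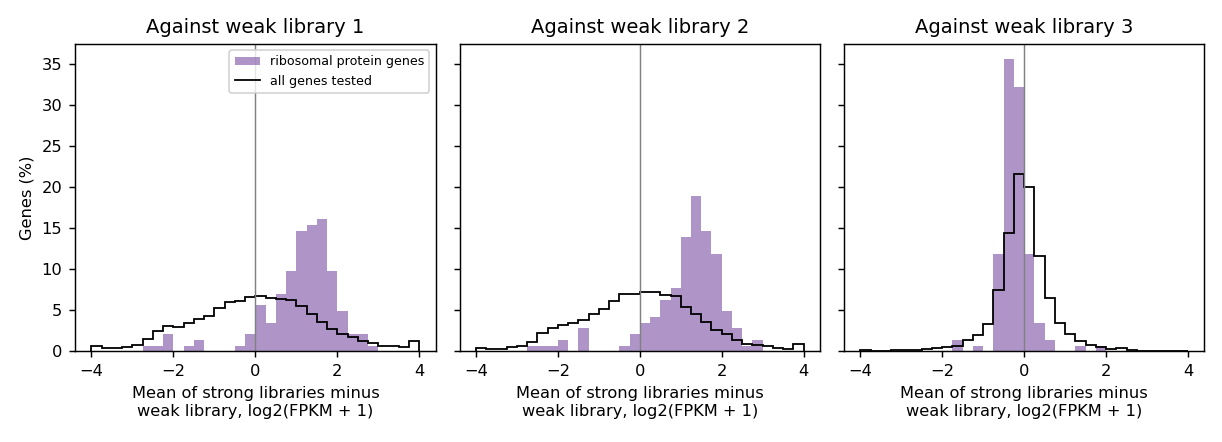
Mean of the strong libraries minus each weak library, in log2(FPKM + 1), for the 143 ribosomal protein genes (filled) and all 16462 genes tested (line), as the percentage of genes in each bin of the x axis. The medians of the ribosomal protein genes were 1.27, 1.30 and -0.24 against weak libraries 1, 2 and 3, with values beyond the axis drawn in its last bins.

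Of the 53 tested genes of the small subunit, 0 passed limma at an adjusted p under 0.05, 10 (18.9%) had an unadjusted p under 0.05, where 45.8% of all genes did, and the fit on recovered reads also called 0. Their median difference was 0.79, with 46 positive and 7 negative, and in 44 of the 53 weak libraries 1 and 2 were the lowest. The gene of highest mean level was PARG13089, one of a pair of genes for S9, a protein of the body of the subunit that contacts the messenger RNA channel. It had 878, 739 and 969 FPKM in the strong libraries, against 165, 179 and 834 FPKM in the weak libraries. Weak library 3 fell inside the strong range, and weak libraries 1 and 2 lay far below it. The difference was 1.55 ± 0.67 (limma, adjusted p = 0.118), and without weak library 3 it was 2.31 ± 0.25 (adjusted p = 0.000467), where ± is the standard error of the fit here and for all differences below.

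Other abundant genes of the small subunit had the same order. PARG00435, for S4, had 419, 344 and 449 FPKM in the strong libraries, against 126, 132 and 443 FPKM in the weak libraries. PARG17094, for S17, had 366, 318 and 370 FPKM in the strong libraries, against 144, 142 and 451 FPKM in the weak libraries. For both, weak library 3 was as high as or higher than most strong libraries, and their adjusted p-values were 0.162 and 0.263 (limma). PARG08597 codes for S6, the protein that S6 kinase phosphorylates when TOR signalling is on. It had 261, 211 and 250 FPKM in the strong libraries, against 86.3, 83.7 and 263 FPKM in the weak libraries, again with only weak library 3 at the level of the strong clone.

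A second gene for S6, PARG01880, stood at a lower and flatter level. It had 31.9, 25.04 and 28.0 FPKM in the strong libraries, against 27.5, 24.3 and 37.2 FPKM in the weak libraries, and the groups overlapped. Its difference of -0.05 ± 0.22 (limma, adjusted p = 0.861) took the opposite sign under both other scalings of the libraries. The largest positive difference of a small subunit gene was that of PARG01195, for S14, a protein of the platform of the subunit. It had 30.8, 21.4 and 34.4 FPKM in the strong libraries, against 3.76, 2.85 and 26.2 FPKM in the weak libraries, and the groups overlapped through weak library 3 (1.88 ± 0.73, limma, adjusted p = 0.0958).

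Of the 87 tested genes of the large subunit, 1 was higher and 2 were lower in the strong clone (3.45%, against 15.3% of all genes). Their median difference was 0.73, with 77 positive and 10 negative, and weak libraries 1 and 2 were the lowest in 75. The most abundant was PARG26516, for L21, with 782, 612 and 805 FPKM in the strong libraries, against 189, 186 and 706 FPKM in the weak libraries. PARG06034, for L27a, had 709, 578 and 689 FPKM in the strong libraries, against 185, 183 and 737 FPKM in the weak libraries. PARG14033, for L27, had 697, 473 and 693 FPKM in the strong libraries, against 171, 172 and 804 FPKM in the weak libraries. In each of these genes the groups overlapped through weak library 3 alone, and their adjusted p-values lay between 0.125 and 0.223 (limma).

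The largest positive differences of the large subunit belonged to genes of middle level. PARG09182, for L3, a protein that reaches towards the peptidyl transferase centre, had 37.2, 33.7 and 31.3 FPKM in the strong libraries, against 3.97, 4.02 and 20.4 FPKM in the weak libraries. PARG30392, for L11, which joins the large subunit together with 5S ribosomal RNA, had 76.6, 56.1 and 78.3 FPKM in the strong libraries, against 9.89, 10.6 and 43.5 FPKM in the weak libraries. In both genes all weak libraries lay below all strong libraries, with weak library 3 in between. The differences were 2.11 ± 0.57 for PARG09182 (limma, adjusted p = 0.0531) and 1.99 ± 0.55 for PARG30392 (adjusted p = 0.0563), both short of the threshold.

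The 3 genes that passed the test all belonged to the large subunit, and 2 of them were described as the L18a protein. PARG01167, on linkage group 1 (bases 8498634 to 8502884), had 36.6, 53.2 and 41.6 FPKM in the strong libraries, against 18.7, 17.0 and 11.1 FPKM in the weak libraries. It was higher in the strong clone by 1.45 ± 0.26 (limma, adjusted p = 0.0206), and the lowest library was weak library 3. PARG11709, on linkage group 3 (bases 19558123 to 19562940), had 1.24, 1.22 and 1.09 FPKM in the strong libraries, against 8.55, 7.17 and 5.83 FPKM in the weak libraries. It was lower in the strong clone (-1.89 ± 0.21, limma, adjusted p = 0.00644) and rested on 42 to 52 reads in the strong libraries and 138 to 215 reads in the weak libraries. In these genes weak library 3 sided with the other weak libraries, unlike in most of the set.

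Both L18a genes were minor copies of their family. The main one, PARG11917, had 566, 399 and 563 FPKM in the strong libraries, against 222, 221 and 646 FPKM in the weak libraries, and so followed the common order. The other tested copies were low: PARG11571 had 9.83 to 11.7 FPKM in the strong libraries and 9.78 to 13.8 FPKM in the weak libraries, and PARG13263 had 0.932 to 1.59 FPKM in the strong libraries and 1.30 to 4.98 FPKM in the weak libraries.

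The third gene was PARG23764, on linkage group 7 (bases 8953982 to 8955181), 1 of a pair of genes for L24, which forms a bridge to the small subunit and in Arabidopsis is needed to restart translation after short upstream reading frames. It had 59.7, 53.2 and 51.4 FPKM in the strong libraries, against 150, 135 and 86.2 FPKM in the weak libraries. Its level was lower in strong flowers (-1.12 ± 0.27, limma, adjusted p = 0.0401). With the libraries rescaled to the same summed FPKM the difference was -0.30 ± 0.20 (adjusted p = 0.232), and the call also ended with a minimum of 5 FPKM (0.0510), while it held after quantile normalization (0.0409). Leaving out a library ended it in 5 of 6 cases, with adjusted p-values of 0.104 to 0.166, and without weak library 3 it was 0.000519. Likewise PARG01167 lost its call without any library other than weak library 3 (adjusted p of 0.0521 to 0.0953), and PARG11709 lost it without strong library 1 (0.0539).

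The 3 ubiquitin fusion genes give a chain that is cleaved into ubiquitin and a ribosomal protein. PARG16189, for ubiquitin-S27a, had 674, 519 and 670 FPKM in the strong libraries, against 128, 136 and 682 FPKM in the weak libraries. PARG06099, also for ubiquitin-S27a, had 416, 292 and 411 FPKM in the strong libraries, against 93.2, 100.3 and 349 FPKM in the weak libraries. PARG13497, for ubiquitin-L40, had 423, 419 and 468 FPKM in the strong libraries, against 166, 165 and 512 FPKM in the weak libraries. All 3 had weak libraries 1 and 2 lowest and weak library 3 within or above the strong range. The differences were 1.43 ± 0.68, 1.31 ± 0.55 and 0.85 ± 0.50, with adjusted p-values of 0.142, 0.111 and 0.207 (limma), 0 of the 3 had an unadjusted p under 0.05, where 45.8% of all genes did, and the fit on recovered reads called 0. Without weak library 3 all 3 were called, where 73.4% of all genes were, with a median difference of 1.92.

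**Figure D3:**
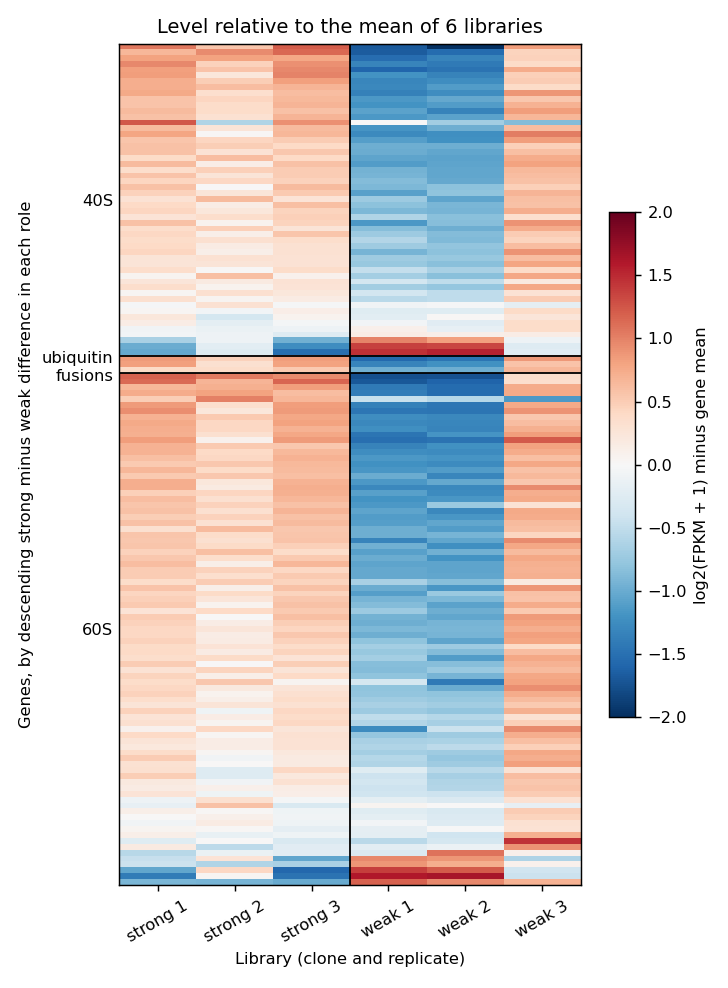
Level of each tested ribosomal protein gene relative to its mean over the 6 libraries, in log2(FPKM + 1), with red above and blue below the mean and the colour held at 2 in either direction. Within the 40S genes, the ubiquitin fusions and the 60S genes, rows run from the largest to the smallest difference, and the 122 genes with weak libraries 1 and 2 lowest form the blue block.

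A small group of genes went the other way. In 8 genes weak libraries 1 and 2 were the highest of the 6 libraries, namely the called L18a and L24 copies, a copy of S9, a pair of S24 copies, a pair of L15 copies and a copy of L10. The 8 were picked by this order in the deposited values, so their negative differences there, at -1.89 to -0.82, largely follow from the choice. After quantile normalization the differences were -2.13 to -0.54, and with the libraries rescaled to the same summed FPKM they were -1.32 to -0.03. Under the latter scaling PARG26689 was at -0.03 ± 0.33, PARG23764 at -0.30 ± 0.20 and PARG24785 at -0.31 ± 0.20. Of the 8, only PARG11709 was then called (limma, adjusted p = 0.0280). PARG24785, the other S9 gene, had 94.8, 138 and 75.9 FPKM in the strong libraries, against 299, 264 and 139 FPKM in the weak libraries (-1.14 ± 0.39, limma, adjusted p = 0.077). PARG19156, for L10, which completes the peptidyl transferase region late in assembly, had 29.3, 81.8 and 19.96 FPKM in the strong libraries, against 161, 145 and 46.4 FPKM in the weak libraries (-1.47 ± 0.66, limma, adjusted p = 0.127). In the S9 gene weak library 3 just cleared the strong range, and in the L10 gene it fell inside it.

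The L15 and S24 copies had the same shape. PARG26284, for L15, had 5.74, 17.3 and 5.41 FPKM in the strong libraries, against 52.8, 54.8 and 12.3 FPKM in the weak libraries. PARG26689, also for L15, had 13.0, 22.3 and 8.43 FPKM in the strong libraries, against 36.7, 34.6 and 11.6 FPKM in the weak libraries. PARG28233, for S24, had 35.1, 61.2 and 29.4 FPKM in the strong libraries, against 185, 181 and 59.4 FPKM in the weak libraries. In all 3, strong library 2 was the highest of the strong libraries and weak library 3 the lowest of the weak ones, and their adjusted p-values were 0.0838, 0.239 and 0.0681 (limma). PARG28233 and the other such S24 gene, PARG28183, are long models of 3430 and 3529 bases that also carry protein kinase and ankyrin domains, so their reads need not come from a ribosomal protein.

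Copies of some families thus had opposite orders, and the make-up of these families differed between libraries. These families hold the genes picked above by their order. Larger shares of the picked copies in weak libraries 1 and 2 therefore largely follow from that choice. Each gene was expressed as its share of the summed FPKM of its family, which does not depend on the scaling between libraries. In S9, PARG24785 gave 9.74%, 15.8% and 7.27% in the strong libraries, against 64.4%, 59.6% and 14.2% in the weak libraries. The leading copy of S9 was therefore PARG13089 in all strong libraries and weak library 3, and PARG24785 in weak libraries 1 and 2. In L15, the leading copy PARG23407 gave 90.9%, 82.6% and 93.6% in the strong libraries, against 39.7%, 39.0% and 90.5% in the weak libraries. In L24, PARG23764 gave 12.7%, 14.2% and 11.8% in the strong libraries, against 45.2%, 41.5% and 14.3% in the weak libraries.

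In L10, PARG19156 gave 6.70%, 14.5% and 4.59% in the strong libraries, against 32.4%, 32.0% and 7.93% in the weak libraries. The L10 family as a whole then varied little, with 437, 563 and 435 FPKM in the strong libraries, against 496, 453 and 585 FPKM in the weak libraries, while the summed S9 level was 973, 877 and 1044 FPKM in the strong libraries, against 464, 442 and 973 FPKM in the weak libraries. In S24, PARG28233 gave 6.18%, 14.9% and 5.56% in the strong libraries, against 54.3%, 53.6% and 10.8% in the weak libraries, with the limit on that model given above. Reads that fit more than 1 near-identical copy could have been split between copies in ways the table does not show.

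**Figure D4:**
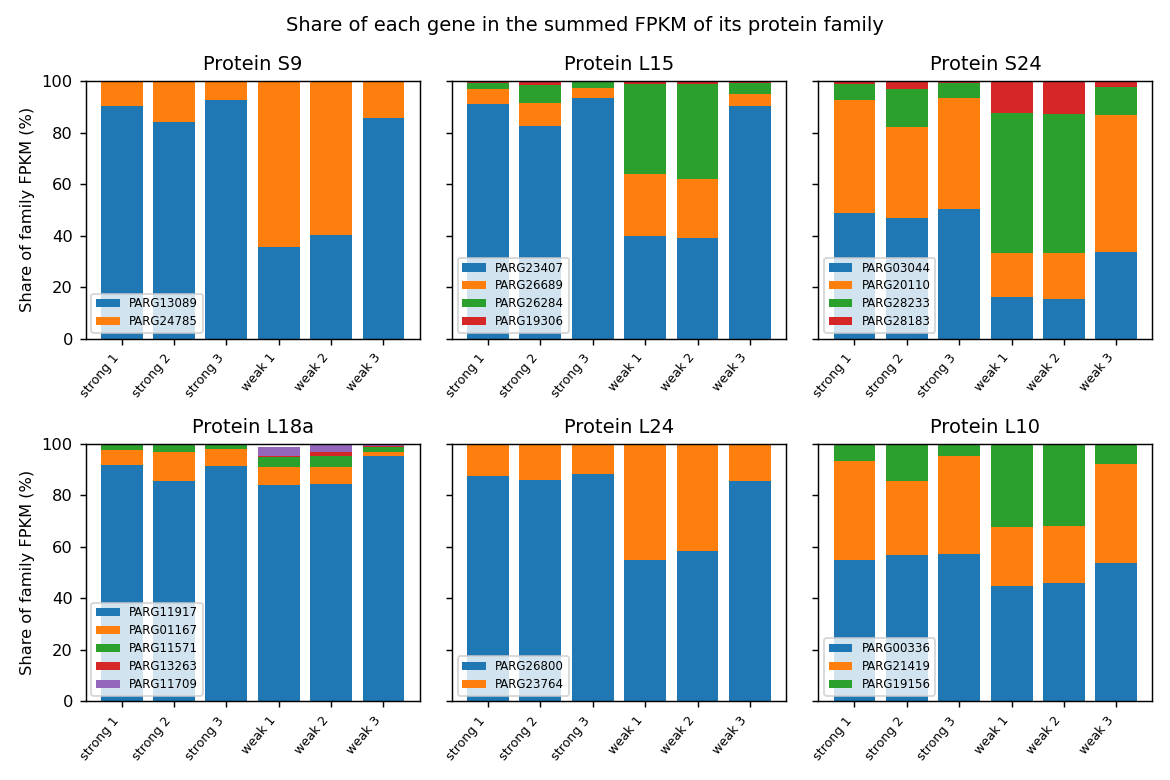
Share (%) of each tested gene in the summed FPKM of its protein family, by library, for S9, L15, S24, L18a, L24 and L10, with bars adding to 100% except in L18a, whose untested genes are not drawn. In S9 the share of PARG24785 was 9.74%, 15.8% and 7.27% in the strong libraries and 64.4%, 59.6% and 14.2% in the weak libraries.

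Most families were steadier than these, which had been picked for such copies. Of the 52 families with at least 2 tested genes, 15 had a share that ranged over 20 percentage points or more across the 6 libraries, and in 21 every share ranged under 10 points. The median over families of the widest range was 12.6 points. In 25 of the 52 families at least 1 share did not overlap between the clones. Levels did not overlap in 45.4% of all genes tested, and each of these families had at least 2 shares that could count. The 25 are therefore not read as a clone difference in the use of copies. Differences of both signs were held by 13 families. The S27a pair was among the steady ones, with PARG16189 at 61.8%, 64.0% and 62.0% in the strong libraries, against 57.8%, 57.5% and 66.2% in the weak libraries.

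Summed over all 163 genes, ribosomal protein genes made up 5.41%, 3.91% and 5.88% of the FPKM in the strong libraries, against 0.882%, 0.936% and 5.13% in the weak libraries. Weak library 3 lay within the strong range and the other weak libraries lay several-fold below it. The means were 5.06% ± 1.03 for the strong clone, against 2.31% ± 2.43 for the weak clone (SD, n = 3 each), and the difference of 2.75 percentage points had p = 0.2 (two-sided exact permutation test, smallest p possible 0.1). Without weak library 3 the difference was 4.16 points. As a share of reads, the values were 3.16%, 2.38% and 3.36% in the strong libraries, against 0.620%, 0.646% and 3.14% in the weak libraries.

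By summed FPKM, the balance of the subunits varied less than their level. Summed FPKM of the small subunit over that of the large subunit was 0.601, 0.613 and 0.608 in the strong libraries, against 0.587, 0.595 and 0.555 in the weak libraries, fusions being counted with their subunit. The strong libraries were all higher, by 0.028 on average (p = 0.1, two-sided exact permutation test, the smallest possible). The ratio of recovered reads gave a difference of the opposite sign, -0.057, so by reads the balance was less even. PARG28233 and PARG28183, the S24 models with kinase domains, held 6585 and 1529 of 43317 small subunit reads in weak library 1. In strong library 1 they held 2739 and 531 of 195864, fusions being left out of these totals. The part of these models in the ratio was not tested.

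Lists of marker genes of flower parts also differed between libraries. By mean log2 level, the pollen list was highest and the photosynthesis list lowest in weak libraries 1 and 2. The pollen list, genes described by pollen or anther terms, had 76 of its 135 genes tested, and its summed level was 9461 to 18554 FPKM in the strong libraries, against 16723 to 52898 FPKM in the weak libraries, with 37 to 42 and 35 to 44 of its genes listed at 0. Its mean log2 level was 5.002, 5.29 and 4.72 in the strong libraries, against 5.63, 5.52 and 5.30 in the weak libraries (p = 0.1, two-sided exact permutation test). PARG10934, for LAT52, a protein of maturing pollen, was at 0 in no library and had 1440, 2618 and 1059 FPKM in the strong libraries, against 8917, 7714 and 2391 FPKM in the weak libraries. The list was not uniform, with 51 of its tested genes negative and 25 positive. By limma 7 were lower and 1 was higher in the strong clone (10.5%), where 15.3% of all genes passed. PARG12205, a non-classical arabinogalactan protein chosen after its values were seen, had 1398, 994 and 1681 FPKM in the strong libraries, against 12.98, 14.4 and 491 FPKM in the weak libraries. The order of libraries by LAT52 was the reverse of that by the ribosomal protein share within each clone, with weak libraries 1 and 2 close together in both. PARG10934 itself was not called (-1.79 ± 0.87, limma, adjusted p = 0.148). It was picked outside the naming rules given below, and the match of the orders was not tested.

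The photosynthesis list, which also took in early light-induced proteins, had 50 of its 60 genes tested. Among these proteins, PARG03488 went against most of the list, with 261, 364 and 180 FPKM in the strong libraries, against 1517, 1103 and 430 FPKM in the weak libraries. The list as a whole had a summed level of 5838 to 6783 FPKM in the strong libraries, against 3985 to 4277 FPKM in the weak libraries, with 6 to 7 and 5 to 8 genes listed at 0. Its mean log2 level was 5.57, 5.56 and 5.67 in the strong libraries, against 4.20, 4.75 and 5.26 in the weak libraries (p = 0.1, two-sided exact permutation test). It had 43 positive and 7 negative differences, with 18 genes higher and 3 lower in the strong clone (limma). These calls were 42% of its tested genes, where 15.3% of all genes passed. The groups did not overlap in 72% of its genes, where 45.4% of all genes did not overlap. The floral identity list, which by its words also took in some ethylene response factors, had 45 of its 89 genes tested, with 28 to 29 genes listed at 0 in the strong libraries and 33 to 35 in the weak libraries. Its summed level was 1894 to 2330 FPKM in the strong libraries, against 1524 to 2248 FPKM in the weak libraries. Of the tested genes, 15 differences were positive and 30 negative. In this list limma called 4 higher and 5 lower (20%), where 15.3% of all genes passed. The groups did not overlap in 42.2%, where 45.4% of all genes did not overlap. AGAMOUS (PARG11989), which specifies stamens and carpels, had 40.7, 39.3 and 45.3 FPKM in the strong libraries, against 49.8, 51.8 and 45.0 FPKM in the weak libraries. The part of pollen and green tissue in the ribosomal protein levels was not tested.

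**Figure D5:**
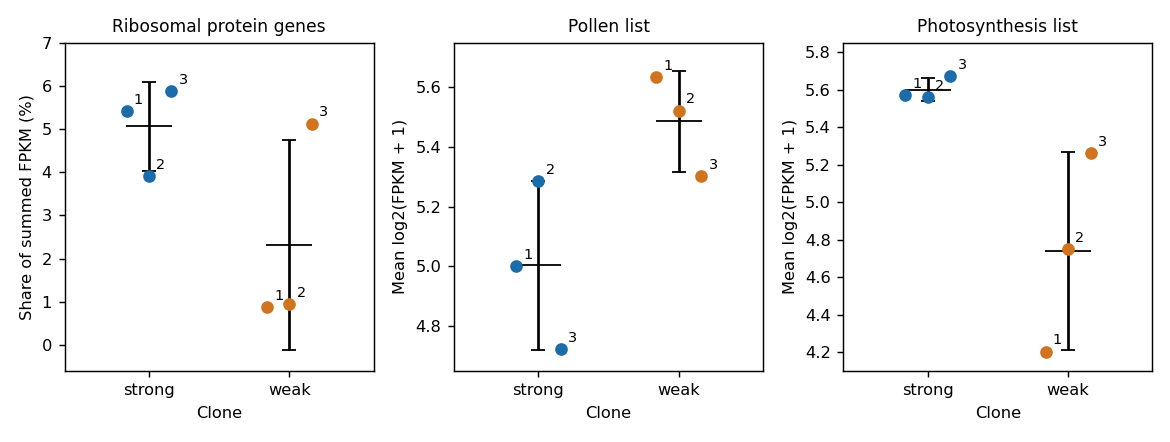
Per library, the share of ribosomal protein genes in summed FPKM (left, %), and the mean log2(FPKM + 1) of the pollen list (middle) and the photosynthesis list (right), with points numbered by replicate and the mean and SD of each clone in black. Weak libraries 1 and 2 had the lowest ribosomal protein shares (0.882% and 0.936%), the highest pollen means (5.63 and 5.52) and the lowest photosynthesis means (4.20 and 4.75).

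Genes that build, serve or regulate the ribosome were set beside the ribosomal protein genes. Of 112 tested ribosome biogenesis genes, 4 were higher and 3 were lower in the strong clone (6.25%, where 15.3% of all genes passed), with a median difference of 0.44. Without weak library 3 these were 75 higher and 11 lower with a median of 0.69. In both directions together those counts are 76.8% of the list, near the 73.4% of all genes called in that fit. By direction they were lopsided, where 38.0% of all genes were higher and 35.4% lower. Weak library 1 lay below the strong range in 75.9% of the list, where 47.0% of all genes did. Weak library 3 lay above that range in 56.25%, where 34.1% of all genes did. PARG09466, for NSA2, a factor of large subunit assembly, had 23.3, 23.2 and 24.1 FPKM in the strong libraries, against 45.8, 41.1 and 45.5 FPKM in the weak libraries, and was lower in the strong clone (-0.88 ± 0.16, limma, adjusted p = 0.0229). PARG02593, for nucleolar GTP-binding protein 1, had 2.88, 1.75 and 2.69 FPKM in the strong libraries, against 0, 0.168 and 0.0293 FPKM in the weak libraries, and was higher (1.68 ± 0.21, limma, adjusted p = 0.00873). In both genes weak library 3 was at the level of the other weak libraries.

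Translation factors, which load, elongate and release on the ribosome, had differences of both signs. Of 79 tested, 1 was higher and 0 were lower in the strong clone, 16 (20.3%) had an unadjusted p under 0.05, where 45.8% of all genes did, the fit on recovered reads called 1, and the median difference was 0.14, with 44 positive and 35 negative. Without weak library 3 there were 36 higher and 27 lower (79.7%, where 73.4% of all genes were called). The called gene was PARG21287, for RBP47, which the list took in as a polyadenylate-binding protein, with 85.8, 77.2 and 105 FPKM in the strong libraries, against 12.9, 14.99 and 28.4 FPKM in the weak libraries (2.26 ± 0.32, limma, adjusted p = 0.0115).

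Of 10 genes described as TOR components or as proteins that sit on the ribosome, 0 passed (limma), 1 had an unadjusted p under 0.05, where 45.8% of all genes did, and the fit on recovered reads called 0. By a shared alias the list also took in a pair of D6 protein kinase genes, which are not S6 kinases. The following genes of the list were chosen after their values were seen. PARG20993, for the TOR kinase itself, was flat, with 11.6, 13.6 and 11.9 FPKM in the strong libraries, against 10.8, 11.3 and 11.1 FPKM in the weak libraries. A pair of genes was described as the G protein beta-like protein, known as RACK1, a scaffold on the head of the small subunit, and its copies had opposite orders, as in S9. PARG25172 had 288, 236 and 286 FPKM in the strong libraries, against 69.7, 67.9 and 309 FPKM in the weak libraries, and PARG27053 had 87.0, 197 and 54.8 FPKM in the strong libraries, against 590.5, 598 and 156 FPKM in the weak libraries. PARG27053 thus gave 23.2%, 45.5% and 16.1% of the pair in the strong libraries, against 89.4%, 89.8% and 33.5% in the weak libraries, and neither copy passed (limma, adjusted p = 0.149 and 0.0818).

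The ribosomal proteins of plastids and mitochondria are the genes most like the set. Of 61 tested, 6 were higher and 2 were lower in the strong clone (13.1%, where 15.3% of all genes were called), with a median difference of 0.98. Without weak library 3 there were 48 higher and 6 lower (88.5%, where 73.4% of all genes were called). Unlike for the cytosolic proteins, weak library 3 did not lie above the strong clone as a rule, with 9 of 61 genes above the strong range and 27 below it. Their share of summed FPKM was 0.556%, 0.408% and 0.630% in the strong libraries, against 0.0901%, 0.104% and 0.394% in the weak libraries, so that every weak library was below every strong one (p = 0.1, two-sided exact permutation test, the smallest possible). The difference between the sets was not tested.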

How the data were processed

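The values are FPKM per gene in 6 libraries, as deposited by the authors beside each gene's coordinates, length and description. CASAVA, Bowtie2 and RSEM are named in the submitters' processing notes; versions and genome build: not given in the sources used here. In each library 100% of the positive values came out as whole reads within 0.01 read. All pairs of libraries differed by more than sampling noise.

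The 16462 genes reaching 1 FPKM in 3 or more of the 6 libraries entered a two-sided test of strong minus weak on log2(FPKM + 1) with limma 3.58.1 (R 4.3.3; lmFit, then eBayes with its trend option). P-values were adjusted by Benjamini-Hochberg over these genes, with a threshold of 0.05. This scale understates the change of low genes. The pipeline was tested on simulated data, with the same spread set for all libraries. In these data the weak clone spread more widely, so that run cannot show how the fit handles weak library 3. The fit on recovered reads used limma's voom and called 2208 genes. Exact permutation tests were used where each library gave a single value.

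The members and lists were chosen with earlier results of these data known. Named were the genes that passed, the most abundant of each role, the members of the 4 families of widest range, the largest differences in each direction, genes for S6, L10 and ubiquitin fusions, the 3 genes of lowest mean, and called genes of the other lists. S9, S4 and similar names follow the descriptions without their copy suffix. Alternatives (14 per limma result) changed the pseudocount, the filter, the scaling, the test, the replicate block and the libraries used. No sequence was analysed here.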

Additional observations from a re-analysis of the deposited data

How the results depend on the processing

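Under the 14 settings of the fit, the median difference of ribosomal protein genes stayed positive, at 0.49 to 1.29 when a library was left out, and at 1.58 with libraries rescaled to the same summed FPKM, which moved the median of all genes to 0.76. The 3 calls became 5 with a pseudocount of 5, 5 after quantile normalization, and 0 to 125 when a library was left out, the 125 being without weak library 3. Calls over all genes (2520) became 1183 with a minimum of 5 FPKM, and 166 to 12075 when a library was left out. Biogenesis calls (7) became 2 with a minimum of 5 FPKM and 0 to 86 when a library was left out. Translation factor calls (1) became 3 with equal sums, 2 after quantile normalization and 0 to 63 when a library was left out. The share of ribosomal protein genes differed by 2.03 to 4.16 percentage points and the subunit ratio by 0.016 to 0.036 when a library was left out, and the ratio by -0.057 on recovered reads. The causes were not tested.

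Deviations of same-numbered libraries correlated at -0.24, 0.59 and 0.61, and those of strong library 2 and weak library 1 at 0.62. The labels do not say whether equal numbers share a tree or day, and these values cannot decide it. With the replicate number as a block, calls were 25 for ribosomal protein genes (17.5%), where 6439 of all genes were called (39.1%). They were 13 for biogenesis (11.6%) and 10 for translation factors (12.7%). Not every library correlated best with its own number. Each clone has every replicate number, so the block cannot change the median difference (0.76) or the difference of the share (2.75 points). Leaving out the 12 tested genes whose models carry other domains left 3 calls and a median of 0.79; this setting was chosen after seeing the data.

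Among named genes 4 took the opposite sign, all with differences near 0. PARG11571 was at 0.70 with equal sums and -0.16 to 0.067 when a library was left out. PARG19306 was at -0.21 after quantile normalization and -0.20 to 0.25 when a library was left out, and PARG00336 at -0.00085 to 0.31. PARG01880 was at 0.75 with equal sums, 0.14 after quantile normalization and -0.18 to 0.12 when a library was left out. Of the other values of named genes, 209 of those with a library left out and 395 of the rest kept their direction and side of the threshold, 85 and 11 lost a call, and 24 and 15 gained one.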

Other observations

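In 5 places along the linkage groups, 2 genes for cytosolic ribosomal proteins were next to each other in the gene table. The fusion ubiquitin-L40 (PARG13497) and S14 (PARG13498) lay 975 bases apart on linkage group 4, S13 (PARG18071) and L22 (PARG18072) lay 1079 bases apart on linkage group 5, and a pair of S5 genes (PARG26548 and PARG26549) lay 2271 bases apart on linkage group 8. Each of these pairs was on the same strand.

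Genes for the acidic P proteins, which form the flexible stalk of the large subunit, were outside the set because their descriptions read 60S acidic ribosomal protein. Of 5 tested, 0 passed (limma), 1 had an unadjusted p under 0.05, where 45.8% of all genes did, and the fit on recovered reads called 0, and their median difference was 1.11. PARG05303, for P0, had 272, 214 and 257 FPKM in the strong libraries, against 61.4, 71.6 and 267 FPKM in the weak libraries.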
